A study of Mus musculus with 84 samples.

Results

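The 36 genes described here encode lysosomal hydrolases, cathepsins, lysosomal membrane proteins and a few of their cofactors and regulators. They were taken by symbol from a fixed list, and all 36 were found among the 55471 genes of the count tables. The cells are MMC9s, mast cells of the intestinal mucosa that produce IL-9, from BALB/c mice with food allergy to ovalbumin. Bulk RNA-seq compared small-intestinal MMC9s of 3 genotypes, with 1 library each: IL4RaY709F, which carries a gain-of-function mutant of the IL-4 receptor α chain, IL4Ra-/-, the loss-of-function mutant, and WT. MMC9s of each genotype grew from bone marrow progenitors given to WT hosts already sensitized to ovalbumin, which then had 7 oral challenges at 3 a week. The hosts' own cells carried the WT receptor, and each RNA sample pooled material from 12 to 20 biological replicates. A separate set of 81 WT MMC9s was sequenced cell by cell, from WT mice in a model that used ovalbumin with alum. Those cells were gated on c-Kit and ST2, with a high IL-4 GFP reporter signal and low β7-integrin, and without lineage markers or IL-17RB2. No gate is stated in these sources for the bulk sort.

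Lysosomes are acidic compartments in which hydrolases break down proteins, sugar chains and lipids. In mast cells the secretory granules share much of this machinery, so that cathepsins and acid hydrolases lie beside the granule proteases and CD63 sits in the granule membrane. TFEB and its relatives switch many lysosomal genes on by binding E-box motifs in their promoters.

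The bulk libraries held 2521791 (IL4RaY709F), 2330628 (IL4Ra-/-) and 2299793 (WT) gene reads, so that 3 reads amounted to 1.18 to 1.31 CPM. Each genotype had 1 library, and a difference below is between libraries, with no replicate to check it against. Intervals in brackets are exact 95% counting intervals, which cover counting error only. Il4ra, the altered gene, stood at 787 CPM in IL4RaY709F, 138 CPM in IL4Ra-/- and 353 CPM in WT. Gene counts cannot show the Y709F change itself, and they do not tell whether the reads left in IL4Ra-/- lie in the deleted part. Each of 16 mast cell markers had 50 reads or more in at least 1 library of every comparison. Of the 81 cells, 80 had 10000 gene reads or more (163596 to 2210211, median 1209300). Among these 80, 4 cells stood apart with under 1000 CPM of Cpa3, the mast cell carboxypeptidase, against 1938 CPM or more in each of the other 76. Immunoglobulin genes took 48.1% and 73.2% of the reads in 2 of the 4 cells, and C1qa, a macrophage complement gene, reached 943 CPM in another. The limit of 1000 CPM was chosen after the data were seen.

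The lysosomal genes took 1.01% of gene reads in IL4RaY709F, 1.004% in IL4Ra-/- and 0.953% in WT. Scaled with TMM factors, which set most genes level between the libraries, they summed to 10917 CPM in IL4RaY709F, 9199.6 CPM in IL4Ra-/- and 9594 CPM in WT, so that the place of IL4Ra-/- beside WT depends on the scaling. Ratios to WT were mostly small. No member passed the size rule in IL4RaY709F and 3 passed it in IL4Ra-/-, all higher: Ctss, Lgmn and Asah1. The size rule asks for 50 reads in the larger library, a ratio of at least 2-fold and an interval that leaves out a ratio of 1. Ctss, Lgmn and Asah1 had 45, 44 and 46 reads in WT, so each met the read minimum through IL4Ra-/- alone. In bulk RNA, fewer cells of a type and less RNA per cell cannot be told apart.

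Per kilobase of exon, the levels of the 36 genes in WT spanned from 611 RPKM for Laptm5 to 0.472 RPKM for Ctsl. Laptm5, a lysosomal membrane protein of blood cells that promotes degradation of immune receptors, had 622 RPKM in IL4RaY709F, 502 RPKM in IL4Ra-/- and 611 RPKM in WT. Gm2a (GRCm38 chromosome 11, 55098115 to 55113029, plus strand), the activator protein that lifts GM2 ganglioside out of membranes for β-hexosaminidase, had 468 RPKM in IL4RaY709F, 357 RPKM in IL4Ra-/- and 374 RPKM in WT. Cd63, a tetraspanin of lysosomes and granules that reaches the surface when mast cells degranulate, had 371 RPKM in IL4RaY709F, 225 RPKM in IL4Ra-/- and 315 RPKM in WT. These 3 genes led the group in every bulk library. Psap, the precursor of the saposins, had 148 RPKM in IL4RaY709F, 209 RPKM in IL4Ra-/- and 162 RPKM in WT. It came next in IL4Ra-/- and WT, and below Ctse (206 RPKM) and Ctsc (194 RPKM) in IL4RaY709F. After it in WT came Ctsc (154 RPKM), Ctse (150 RPKM), Ctsd (114 RPKM), Lamp1 (70.99 RPKM), Ids (67.2 RPKM), Ctsz (63.5 RPKM), Hexa (55.02 RPKM) and Npc2 (32.3 RPKM). The plot of levels in the 3 libraries shows the points of most genes close together, with those of Ctss, Lgmn and Ctsl spread the widest.

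**Figure D1:**
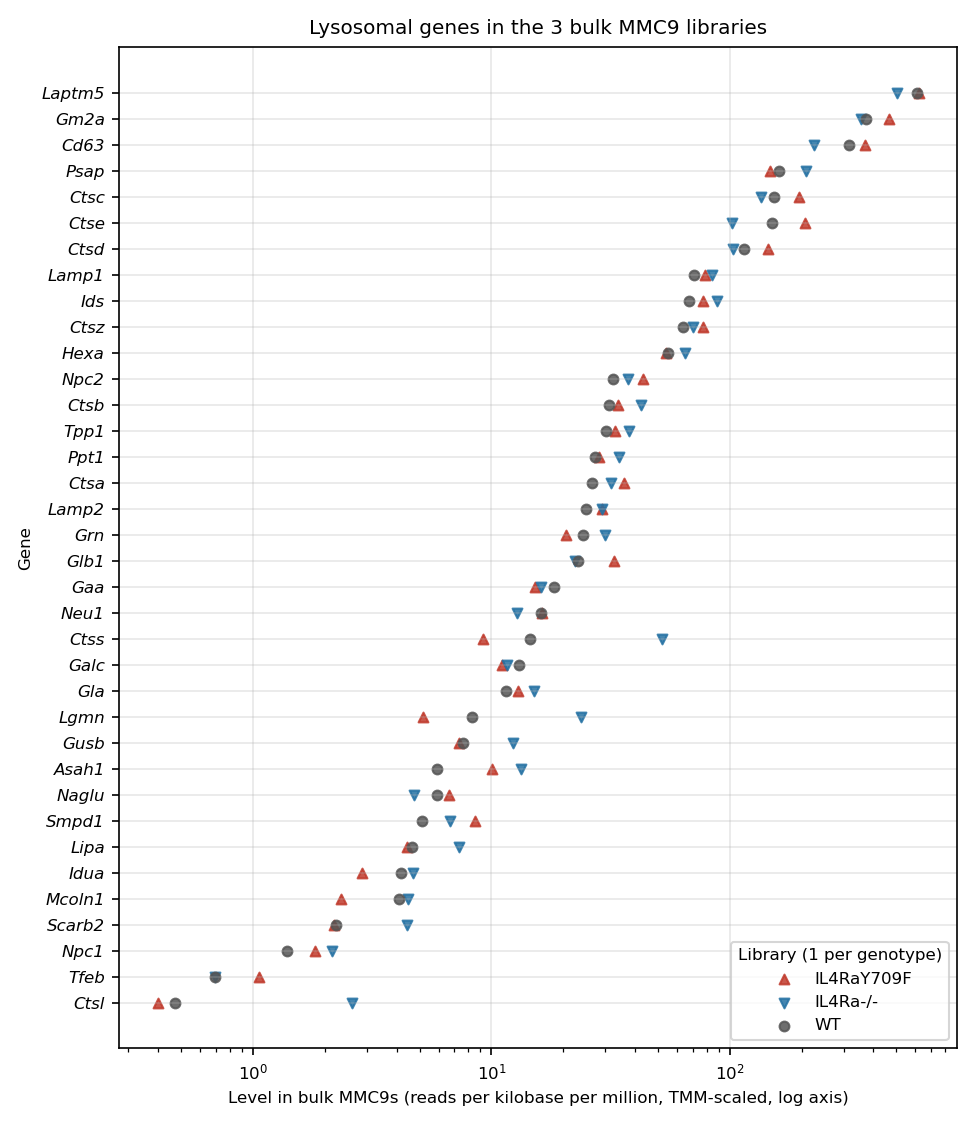
Level of each of the 36 genes in the 3 bulk libraries, in RPKM on a log axis, with 1 point per library and genes ordered by their WT level. Laptm5, Gm2a and Cd63 lie at the top in all 3 libraries, and Ctss and Lgmn lie to the right in IL4Ra-/- (51.8 and 23.7 RPKM) of their points in WT (14.5 and 8.29 RPKM).

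Among the cathepsins, the abundant ones had ratios of IL4RaY709F to WT slightly above 0, and those lowest in WT per kilobase were the ones that stood out in IL4Ra-/-. Ctsc is the dipeptidyl peptidase that activates granule serine proteases such as the chymases. It had 1129 CPM in IL4RaY709F, 787 CPM in IL4Ra-/- and 893 CPM in WT, with log2 ratios to WT of 0.34 (0.26 to 0.42) in IL4RaY709F and -0.18 (-0.27 to -0.09) in IL4Ra-/-. Ctsd, the main aspartic protease of lysosomes, had 341 CPM in IL4RaY709F, 243 CPM in IL4Ra-/- and 269 CPM in WT (log2 ratios of 0.34 and -0.15 to WT). In both genes WT lay between the mutants, and no ratio came near 2-fold. For Ctsd the interval of IL4Ra-/- to WT (-0.31 to 0.01) covered 0, so the order of those 2 libraries is within counting error.

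Ctse (GRCm38 chromosome 1, 131638306 to 131675505, plus strand), an aspartic protease found in endosomes and the mucosa of the gut, showed the widest such order among the abundant members. It had 1520 reads (654 CPM) in IL4RaY709F, 820 reads (323 CPM) in IL4Ra-/- and 1086 reads (475 CPM) in WT. The log2 ratio to WT was 0.46 (0.35 to 0.57) in IL4RaY709F and -0.56 (-0.69 to -0.43) in IL4Ra-/-, the lowest of the 33 members measured in that comparison. Between IL4RaY709F and IL4Ra-/- it was 1.02 (0.90 to 1.14), just past 2-fold, and it fell short of 2-fold at 0.78 with scaling by total reads.

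Ctsa, a serine carboxypeptidase that also shields the sialidase and the β-galactosidase from breakdown, had 170.3 CPM in IL4RaY709F, 150.2 CPM in IL4Ra-/- and 124 CPM in WT (log2 ratios to WT of 0.45 and 0.27). Ctsb, a cysteine protease of broad reach, had 206 CPM in IL4RaY709F, 256 CPM in IL4Ra-/- and 188 CPM in WT (0.13 and 0.44). Ctsz, a cysteine carboxypeptidase, had 111 CPM in IL4RaY709F, 101 CPM in IL4Ra-/- and 91.4 CPM in WT (0.28 and 0.15). WT was the lowest of the 3 libraries for each of these, with both ratios above 0. The intervals covered 0 for Ctsb in IL4RaY709F (-0.06 to 0.32) and for Ctsz in IL4Ra-/- (-0.12 to 0.42), so those differences are within counting error.

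Ctss and Lgmn had the highest ratios of IL4Ra-/- to WT among the members with enough reads. Ctss (GRCm38 chromosome 3, 95526786 to 95556403, plus strand), the cysteine protease that trims the invariant chain of MHC class II in antigen-presenting cells, had 29 reads (12.5 CPM) in IL4RaY709F, 179 reads (70.4 CPM) in IL4Ra-/- and 45 reads (19.7 CPM) in WT. Its log2 ratio of IL4Ra-/- to WT was 1.84 (1.36 to 2.34). Lgmn (chromosome 12, 102394084 to 102439813, minus strand), an asparaginyl endopeptidase that processes other cathepsins, had 28 reads (12.0 CPM) in IL4RaY709F, 140 reads (55.1 CPM) in IL4Ra-/- and 44 reads (19.3 CPM) in WT. Its log2 ratio of IL4Ra-/- to WT was 1.52 (1.02 to 2.04). Both were too low for the size rule between IL4RaY709F and WT, where their log2 ratios were -0.66 (-1.39 to 0.05) and -0.68 (-1.42 to 0.04). Between IL4RaY709F and IL4Ra-/- both were lower, at -2.50 (-3.12 to -1.93) for Ctss and -2.19 (-2.83 to -1.60) for Lgmn. Ctsl, a cysteine protease related to Ctss, had 6 reads in IL4RaY709F, 43 in IL4Ra-/- and 7 in WT. Its log2 ratio of IL4Ra-/- to WT was 2.46 (1.30 to 3.86), on fewer than 50 reads.

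Markers of macrophages, dendritic cells and plasma cells moved the same way as Ctss and Lgmn, and those of other cell types did so in part. Of 14 macrophage or monocyte markers, 10 had 50 reads or more in IL4Ra-/- or WT, and 9 of these were higher in IL4Ra-/-. The exception was Cx3cr1, which was read in 68 of the 80 WT cells and had 647 CPM in IL4RaY709F, 652 CPM in IL4Ra-/- and 608 CPM in WT. The whole list summed to 748 CPM in IL4RaY709F, 1286 CPM in IL4Ra-/- and 796 CPM in WT, and its 12 genes detected in under 5% of the WT cells summed to 93.3, 572 and 175 CPM in the same order. Lyz2, macrophage lysozyme, had 17.2 CPM in IL4RaY709F, 163 CPM in IL4Ra-/- and 45.1 CPM in WT. None of the 14 was at 0 in a bulk library, whereas C1qb, C1qc, Mrc1, Lyz2, Adgre1, Fcgr1 and Mpeg1 were detected in 0 of the 80 WT cells (exact upper limit 4.51%). Of 8 dendritic cell markers, 5 had enough reads and 4 were higher in IL4Ra-/-. That list summed to 257 CPM in IL4RaY709F, 781 CPM in IL4Ra-/- and 301 CPM in WT, with 1, 1 and 2 markers at 0. Its 5 genes detected in under 5% of the WT cells summed to 49.4, 147 and 55.6 CPM in that order. H2-Ab1 and H2-Aa, on the same list, were detected in 22 and 12 of the 80 WT cells, so the list is not specific to other cells. Of 10 B or plasma cell markers, 4 had enough reads and 3 were higher, with sums of 3027 CPM, 13388.5 CPM and 6579 CPM in the same order and 0, 0 and 1 marker at 0. The 4 of these 10 in under 5% of cells held little of that, at 8.17, 18.1 and 13.1 CPM. The 11 epithelial markers summed to 972 CPM in IL4RaY709F, 726 CPM in IL4Ra-/- and 1061 CPM in WT, whereas the 9 of them in under 5% of cells summed to 16.8, 56.6 and 13.1 CPM in that order. The 6 T cell markers summed to 198 CPM in IL4RaY709F, 276 CPM in IL4Ra-/- and 158 CPM in WT. Neutrophil (5 genes) and eosinophil markers (4 genes) were highest in WT, at 2.58, 4.33 and 5.69 CPM and at 35.7, 30.7 and 44.6 CPM in that order. Ctss was detected in 2 of the 80 WT cells and Lgmn in 5, and in 1 and 5 of the 76 with high Cpa3. The part of these other cells in the ratios of Ctss, Lgmn and Ctsl was not tested.

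Most enzymes of sphingolipid and ganglioside breakdown differed little, with Asah1 as the exception in IL4Ra-/-. Asah1 (chromosome 8, 41340197 to 41374773, minus strand), the acid ceramidase, had 79 reads (33.97 CPM) in IL4RaY709F, 115 reads (45.2 CPM) in IL4Ra-/- and 46 reads (20.1 CPM) in WT. WT was the lowest library. Its log2 ratio to WT was 0.75 (0.21 to 1.31) in IL4RaY709F, the highest member there, and 1.17 (0.66 to 1.69) in IL4Ra-/-. Smpd1, the acid sphingomyelinase one step upstream of it, had 66 reads in IL4RaY709F, 57 in IL4Ra-/- and 39 in WT (log2 ratios of 0.73 and 0.39 to WT). Asah1 was detected in 17 of the 80 WT cells, all 17 among the 76 with high Cpa3.

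Gm2a had 4488 reads in IL4RaY709F, 3742 in IL4Ra-/- and 3532 in WT, with log2 ratios to WT of 0.32 (0.26 to 0.38) and -0.07 (-0.14 to -0.004). Its partner Hexa, the alpha subunit of β-hexosaminidase, had 108 CPM in IL4RaY709F, 129.8 CPM in IL4Ra-/- and 109.8 CPM in WT (-0.03 and 0.24). Psap had 405 CPM in IL4RaY709F, 574 CPM in IL4Ra-/- and 443 CPM in WT (-0.13 and 0.37). The activators Gm2a and Psap thus differed in their highest library, which was IL4RaY709F for Gm2a and IL4Ra-/- for Psap. Their full orders are less certain. The interval of Psap in IL4RaY709F to WT (-0.26 to 0.001) covered 0. For Gm2a the ratio of IL4Ra-/- to WT is smaller in size than the shift of 0.13 with total reads. Galc, the galactosylceramidase, had 166 CPM in IL4RaY709F, 173 CPM in IL4Ra-/- and 195 CPM in WT, and Gla, α-galactosidase A, had 42.1, 49.2 and 37.6 CPM in that order. Lipa, the acid lipase of cholesteryl esters, had 30.1 CPM in IL4RaY709F, 49.5 CPM in IL4Ra-/- and 31.5 CPM in WT, a log2 ratio of 0.65 (0.22 to 1.09) in IL4Ra-/-.

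Of the enzymes that cut sugar chains, Glb1, the acid β-galactosidase, had 98.5 CPM in IL4RaY709F, 67.2 CPM in IL4Ra-/- and 69.1 CPM in WT (log2 ratios of 0.51 and -0.04 to WT). Gusb, the β-glucuronidase, had 33.1 CPM in IL4RaY709F, 55.8 CPM in IL4Ra-/- and 34.6 CPM in WT (-0.06 and 0.69). Neu1, the lysosomal sialidase, had 60.6 CPM in IL4RaY709F, 47.98 CPM in IL4Ra-/- and 60.4 CPM in WT (0.01 and -0.33). IL4RaY709F stood apart as the high library for Glb1, whereas IL4Ra-/- was the high one for Gusb and the low one for Neu1. For Neu1 the intervals of IL4Ra-/- to WT (-0.70 to 0.03) and of IL4RaY709F to IL4Ra-/- (-0.02 to 0.70) covered 0. Gaa, which degrades glycogen, had 72.7 CPM in IL4RaY709F, 77.5 CPM in IL4Ra-/- and 87.5 CPM in WT. Ids, a sulfatase of heparan and dermatan sulfate, was the most abundant of the glycosaminoglycan enzymes at 395 CPM in IL4RaY709F, 450.3 CPM in IL4Ra-/- and 343 CPM in WT (log2 ratios of 0.20 and 0.39). Idua and Naglu, which act on the same chains, stayed at 50 reads or fewer in every bulk library.

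Among the membrane proteins, Cd63 and Laptm5 had ratios of IL4Ra-/- to WT below 0 that did not reach 2-fold. Cd63 had 1365 CPM in IL4RaY709F, 829 CPM in IL4Ra-/- and 1159.5 CPM in WT, with log2 ratios to WT of 0.24 (0.16 to 0.31) and -0.48 (-0.57 to -0.40). Laptm5 had 2355 CPM in IL4RaY709F, 1901 CPM in IL4Ra-/- and 2314 CPM in WT (0.03 and -0.28). Lamp1 and Lamp2, the main glycoproteins of the lysosomal membrane, did not share that order. Lamp1 had 210.3 CPM in IL4RaY709F, 225 CPM in IL4Ra-/- and 189.9 CPM in WT, and Lamp2 had 278 CPM in both mutants and 239 CPM in WT. Npc2, the soluble protein that hands cholesterol to the membrane protein Npc1, had 236 CPM in IL4RaY709F, 204 CPM in IL4Ra-/- and 176 CPM in WT.

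Scarb2 (chromosome 5, 92441314 to 92506833, minus strand), the membrane receptor that carries glucocerebrosidase to lysosomes, had 32 reads in IL4RaY709F, 71 in IL4Ra-/- and 32 in WT. Its log2 ratio of IL4Ra-/- to WT was 0.996 (0.37 to 1.65), just short of 2-fold, and it passed with each of the other scalings (1.02 to 1.15). Between IL4RaY709F and IL4Ra-/- it was lower, at -1.02 (-1.67 to -0.40). Mcoln1, a calcium channel of the lysosomal membrane, had 41 reads in IL4RaY709F, 86 in IL4Ra-/- and 71 in WT, and its log2 ratio of -0.82 (-1.41 to -0.24) in IL4RaY709F was the lowest of the members there. Tfeb had 14, 10 and 9 reads in IL4RaY709F, IL4Ra-/- and WT, too few for any ratio to be read. The remaining members, the peptidase Tpp1, the thioesterase Ppt1, the growth factor precursor Grn and the cholesterol exporter Npc1, had log2 ratios to WT between -0.24 and 0.63 in both mutants. Grn had 71.4 CPM in IL4RaY709F, 104 CPM in IL4Ra-/- and 84.0 CPM in WT.

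Counted over the group, 28 of the 36 members had 50 reads or more in IL4RaY709F or WT, and 0 were higher and 0 lower by the size rule. Over all 5964 genes measured in that comparison the rule called 1.68% higher and 0.771% lower. The members' log2 ratios had a median of 0.16, against 0.02 over all genes, with 20 above 0 and 8 below. Their intervals lay wholly above 0 for 13 members and wholly below for 2, whereas this held for 18.1% and 13.6% of all genes. Of the 28, 2 reached 50 reads through IL4RaY709F alone, Asah1 and Smpd1, which had the highest ratios. Mcoln1, with the lowest ratio, reached 50 reads through WT alone. Over all 36 members the median was 0.14, with 23 above 0 and 13 below.

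In IL4Ra-/- against WT, 33 members had enough reads, of which 3 were higher and 0 lower, while 2.43% and 1.3% of 6246 genes were called higher and lower. The median log2 ratio of the members was 0.24, against -0.08 over all genes, with 23 above 0 and 10 below. Of the 33, 7 reached 50 reads through IL4Ra-/- alone, and the 3 called higher were all among them. Over all 36 members the median was 0.24, with 24 above 0. The interval lay wholly above 0 for 17 members and wholly below for 5, and for 12.6% and 27.4% of all genes. Between IL4RaY709F and IL4Ra-/-, which share their libraries with the comparisons above, 1 of 33 members was higher (Ctse) and 3 were lower (Ctss, Lgmn and Scarb2). The 3 lower ones had 29, 28 and 32 reads in IL4RaY709F and also met the read minimum through IL4Ra-/- alone. Scaling by total reads gave 0 higher and 4 lower, a count with no share over all genes given for that scaling. With TMM scaling, 4.62% of all 6319 genes were higher and 3.5% lower, and the median log2 ratio was -0.19 for the members and 0.09 for all genes. Scaling by total reads shifts every log2 ratio by -0.11 (IL4RaY709F to WT), 0.13 (IL4Ra-/- to WT) and -0.24 (between the mutants), and leaving immunoglobulin, mitochondrial and ribosomal RNA genes out of the totals shifts them by -0.11, 0.15 and -0.26. A ratio changes sign where its sign is opposite to the shift and its size is smaller. The medians over all measured members kept their sign in each comparison.

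**Figure D2:**
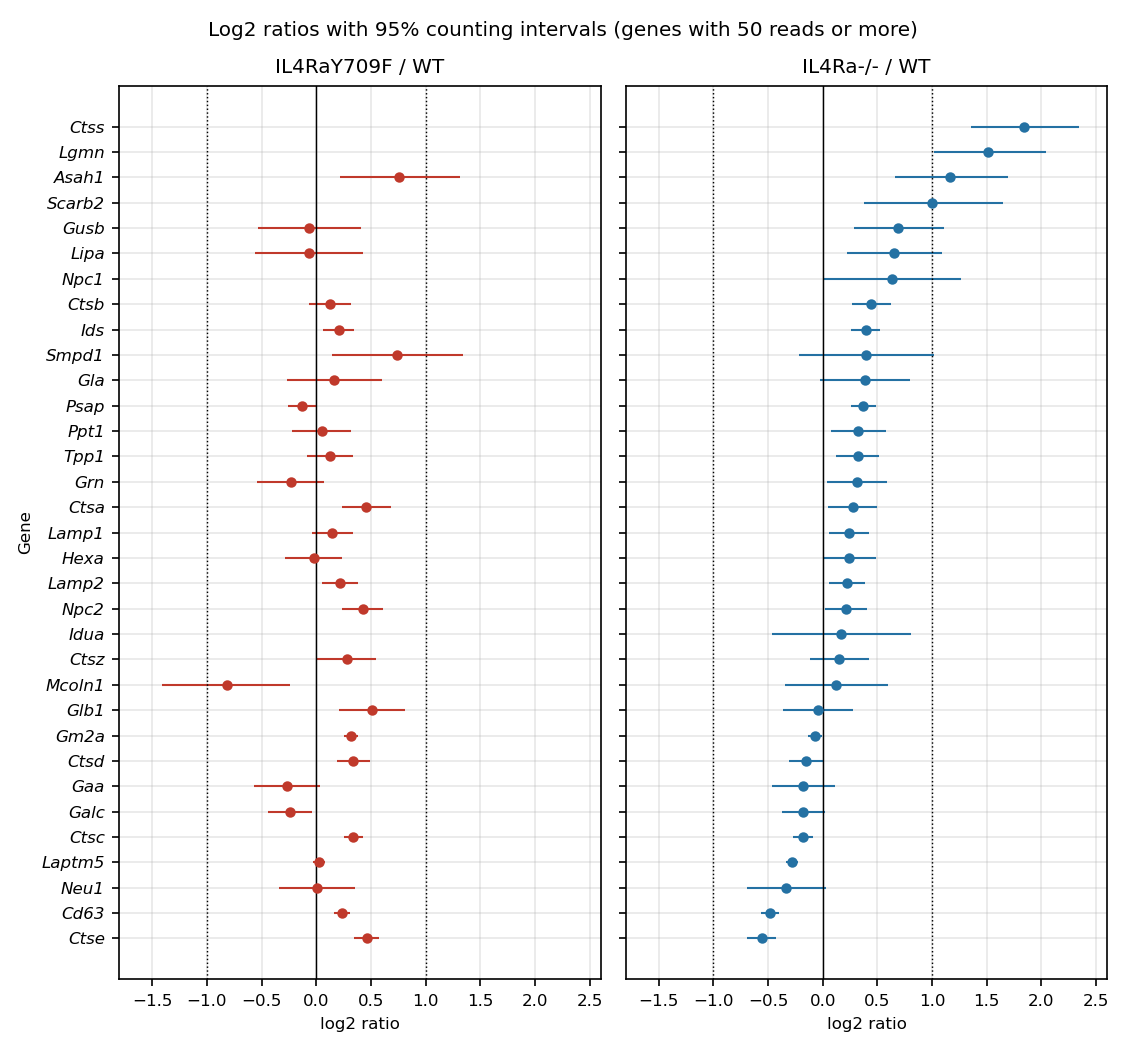
Log2 ratio to WT of each member with 50 reads or more in either library, for IL4RaY709F on the left and IL4Ra-/- on the right, with bars for 95% counting intervals and dotted lines at 2-fold. No IL4RaY709F point passes 2-fold, and Ctss, Lgmn and Asah1 lie past it in IL4Ra-/-, with Scarb2 at 0.996.

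In single WT MMC9s, lysosomal genes ranged from read in every cell to read in 1 cell. With detection set at a minimum of 10 reads, 13 of the 36 were detected in at least 50% of the 80 cells, 9 in under 10%, and none in 0 cells, with a median share of 30%. Of the 26 members with 50 reads or more in WT bulk, 50% were detected in at least 50% of cells, and so were 22.8% of all 5623 genes with that many reads. A cell had between 1 and 25 of the 36 detected, with a median of 14, and the members took from 0.0226% to 4.77% of its gene reads, with a median of 1.73%. Without the 4 cells low in Cpa3, the lowest values were 3 members and 0.0845%.

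Gm2a was detected in 80 of 80 cells (95.5% to 100%), at 139.98, 8203 and 36926 CPM in the lowest, median and highest cell. Cd63 and Laptm5 were each detected in 77 cells, with medians of 1974 and 1922 CPM. Ctsc was detected in 74 cells (92.5%, 84.4% to 97.2%), Ctsd in 67 and Ctse in 63, with medians of 631, 208 and 584 CPM. Each of these 6 genes was thus read in most WT cells, and Gm2a alone gave 47.7% of the members' reads in the summed cells. The coefficient of variation over cells was 0.667 for Cd63, 0.696 for Laptm5 and 0.698 for Gm2a. Without the 4 cells low in Cpa3 these were 0.611, 0.643 and 0.660, and the lowest cell had 378 CPM of Gm2a, with a median of 8399 CPM. Ctsc was then detected in 72 of 76 cells, Ctsd in 66 and Ctse in 62.

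Other common members were read unevenly. The widest spread among the 13 was that of Galc, detected in 40 cells, at 0, 23.1 and 1152 CPM in the lowest, median and highest cell and with a coefficient of variation of 1.99. Ids followed (59 cells, 1.60), then Ctsz (47 cells, 1.54), Lamp2 (49 cells, 1.53) and Ctsb (53 cells, 1.47). Ctsb, for example, had no reads in some cells, a median of 140.3 CPM and a highest value of 3172 CPM. Npc2 was detected in 50 cells and Ctsa in 48. The 9 members detected in under 10% of cells were Tfeb (1 cell), Ctss (2), Ctsl (3), Lgmn and Naglu (5 each), Gla (6), Npc1, Idua and Mcoln1 (7 each). For several of these, few cells held most reads, with 81.3% of the Lgmn reads in 1 cell at 1723 CPM. The other 14 lay between, from Scarb2 with 9 cells to Tpp1 with 37.

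**Figure D3:**
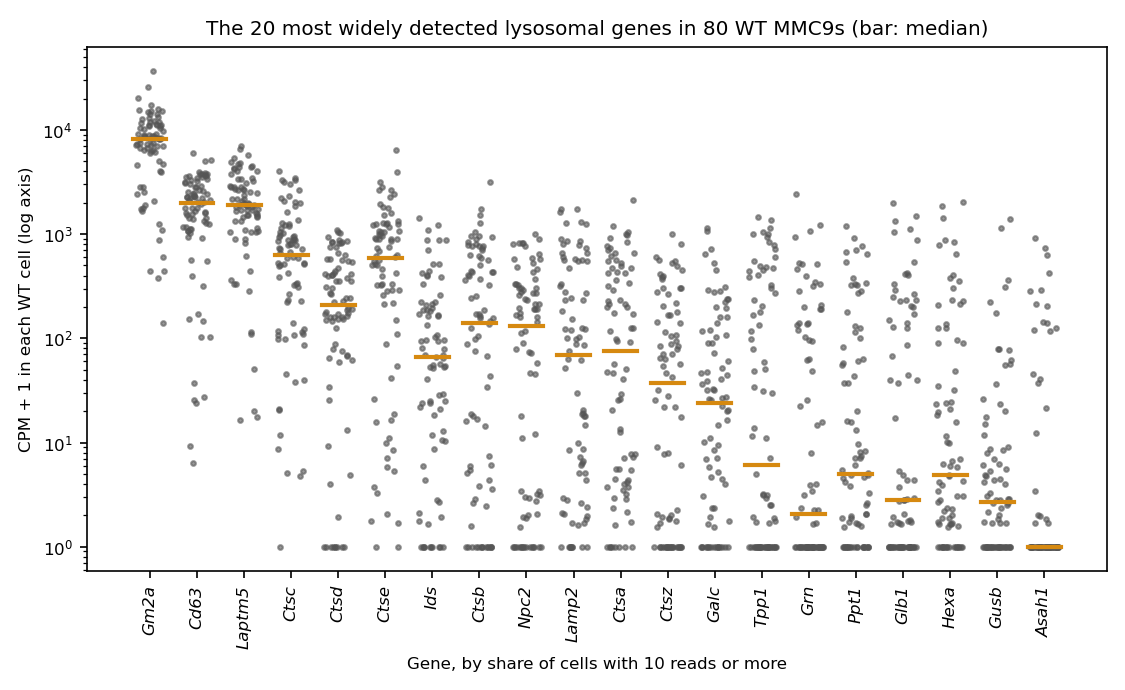
CPM + 1 of the 20 most widely detected members in each of the 80 WT cells, on a log axis, with 1 grey point per cell and an orange bar at the median. Gm2a lies highest with a median of 8203 CPM, and Galc and other genes to the right have many cells at 0 next to cells above 1000 CPM.

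Among the 13 common members, Spearman's rho over the 80 cells had a median of 0.13 over 78 pairs, and 0.09 without the 4 cells low in Cpa3. Only Gm2a and Cd63 passed 0.5, at 0.61 with all cells and 0.55 without the 4 low in Cpa3. These are descriptions over cells of 1 sample, and CPM values share each cell's total. The number of members detected followed the number of genes detected (rho 0.84), which depends on the depth and capture of each cell.

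The summed cells and WT bulk placed the same genes at the top, but some members, Gm2a, Psap and Lamp1 among them, differed widely between the 2. The cells came from another mouse model and from single-cell libraries, so model, sort and library type cannot be told apart here. Gm2a stood at 8910.1 CPM in the summed cells and 1536 CPM in WT bulk scaled by total reads, 5.80-fold higher in the cells. Psap stood at 15.3 CPM in the cells and 440.5 CPM in bulk, 28.7-fold lower in the cells, and was detected in 13 of 80. Lamp1 stood at 29.4 CPM in the cells and 189 CPM in bulk, 6.43-fold lower. Of members scarcer in bulk, Ctss was 45.6-fold lower in the cells (0.43 against 19.6 CPM) and Mcoln1 6.77-fold lower (4.56 against 30.9 CPM). Tfeb was 28.1-fold lower, on 9 reads in bulk. Laptm5, in contrast, had 2364 CPM in the cells and 2299 CPM in bulk, and Ctsc had 1006 CPM and 887 CPM. Of 34 members with 50 reads or more in either, 9 were at least 2-fold higher in the cells and 6 at least 2-fold lower on the log2(CPM + 1) scale. Such a difference was common, with 29.6% of 13099 genes higher and 20.9% lower. The median difference was 0.52 log2 for the members and 0.31 for all genes.

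**Figure D4:**
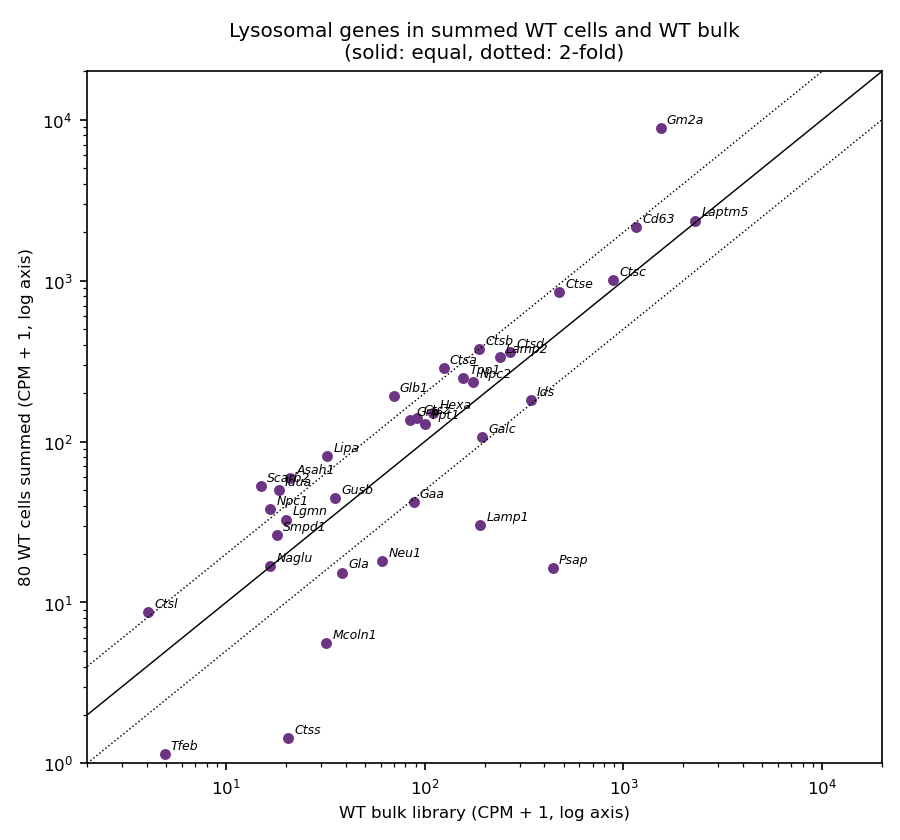
Summed reads of the 80 WT cells against the WT bulk library for each member, as CPM + 1 on log axes, with the line of equality and dotted lines at 2-fold. Gm2a lies above the lines (5.80-fold), and Psap, Lamp1, Mcoln1, Ctss and Tfeb lie well below.

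Set against detection in WT cells, the members read in most cells had IL4Ra-/- to WT ratios on both sides of 0, and the highest ratios belonged to members read in few cells. This split was made after the data were seen and is a description. It covers all 36 members, each of which averaged at least 10 reads over the 3 bulk libraries, since 4 of the 9 rarest members (Ctss, Lgmn, Npc1 and Idua) reached 50 reads in that comparison through IL4Ra-/- alone. For the 13 members detected in at least 50% of cells, the median log2 ratio of IL4Ra-/- to WT was -0.07, with 6 above 0 and 7 below. For the 14 detected in 10% to under 50% it was 0.32, with 11 above 0 and 3 below. For the 9 detected in under 10% it was 0.39, with 7 above 0 and 2 below (Naglu at -0.32 and Tfeb at -0.002). Over all genes with that mean number of reads the medians in the same 3 ranges of detection were -0.17, -0.05 and 0.07. The members' median of -0.07 is smaller in size than the shift of 0.13 with total reads, so its sign depends on the scaling. That shift moves the medians of members and of all genes alike. As given above, macrophage, dendritic cell and plasma cell markers were also higher in IL4Ra-/-, and 12 of the 14 macrophage markers were detected in under 5% of the WT cells. Their part in these medians was not tested.

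In IL4RaY709F against WT the 13 common members had a median log2 ratio of 0.28, with 12 above 0 (Galc was below), against 0.12 over the 1359 genes of that range, of which 66.8% were above 0. The 14 members of the middle range had a median of -0.01 and the 9 rarest one of -0.25. Mast cell markers moved with the common members: 12 of the 16 lay above 0 in IL4RaY709F, with a median of 0.39, and 1 of them, the chymase Cma1, was higher by the size rule. The 16 markers summed to 104938 CPM in IL4RaY709F, 69351.7 CPM in IL4Ra-/- and 73894 CPM in WT, with none at 0 in any library. In IL4Ra-/- against WT they had a median of -0.10, with 6 above 0, and this median too is smaller in size than the shift of 0.13 with total reads. For the 4 measured markers of B and plasma cells the median in IL4RaY709F against WT was -1.04. The part of these markers' cells in the members' ratios was not tested.

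**Figure D5:**
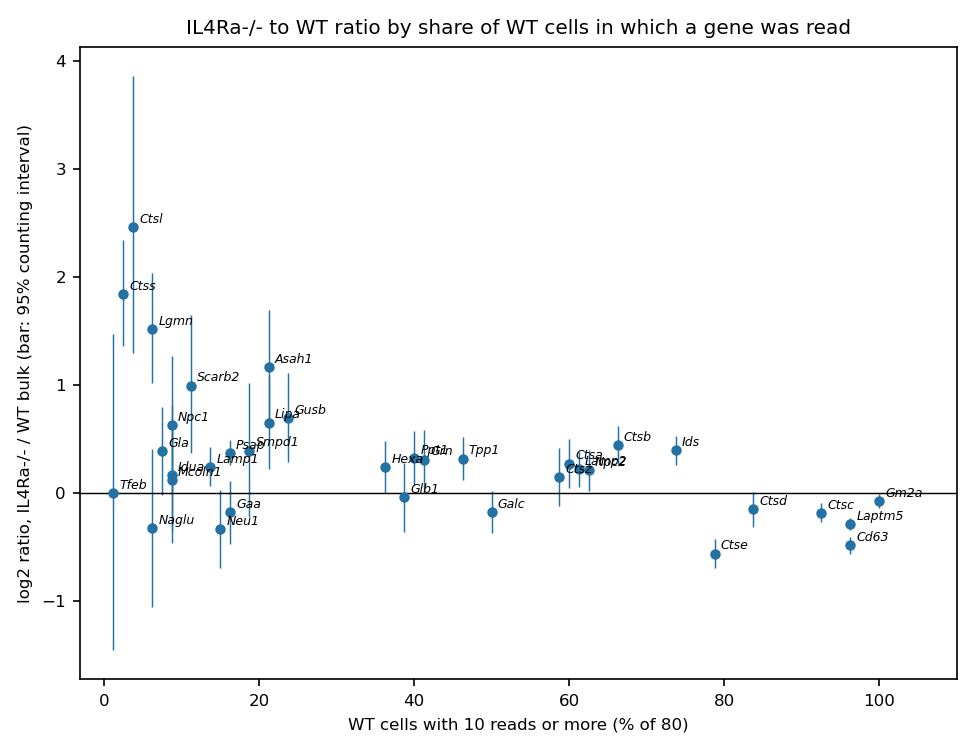
Log2 ratio of IL4Ra-/- to WT in bulk against the share of the 80 WT cells with 10 reads or more, for all 36 members, with bars for 95% counting intervals. Ctsl (3.75% of cells), Ctss (2.5%) and Lgmn (6.25%) lie at 2.46, 1.84 and 1.52, and Cd63, Laptm5 and Gm2a, in over 95% of cells, lie below 0. Ratios are TMM-scaled, and that of Gm2a (-0.07) is smaller in size than the shift of 0.13 with total reads.

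Other genes of the lysosome were read against the shares of all measured genes given above, 1.68% higher and 0.771% lower in IL4RaY709F and 2.43% and 1.3% in IL4Ra-/-. Of 17 V-ATPase subunits, which pump protons into the lysosome, 16 were measured and 0 passed the size rule in either mutant against WT (median log2 ratios of 0.12 in IL4RaY709F and 0.01 in IL4Ra-/-). None passed either among 17 other lysosomal membrane proteins found by symbol, 13 genes that tag enzymes for delivery to lysosomes and 16 genes of the TFEB family and mTORC1 control, with 9 to 14 measured in each. The highest gene of each list in WT was Atp6v0d1, a V-ATPase subunit, at 109 RPKM, Laptm4a, a membrane relative of Laptm5, at 71.1 RPKM, M6pr, a mannose phosphate receptor, at 101 RPKM, and Mitf, a mast cell relative of TFEB, at 65.04 RPKM. Among 26 other acid hydrolases 1 passed, Ctsh, an aminopeptidase of the cathepsin family. It had 13 reads in IL4RaY709F, 60 in IL4Ra-/- and 17 in WT, a log2 ratio of 1.67 (0.87 to 2.54) in IL4Ra-/-, and was detected in 3 of 80 WT cells.

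In the list of cathepsin and serine protease inhibitors 2 neighbouring genes on chromosome 12 passed. Serpina3g, a serpin known to inhibit cathepsins in mouse lymphocytes, had 679.8 CPM in IL4RaY709F, 67.2 CPM in IL4Ra-/- and 157 CPM in WT. Its log2 ratio to WT was 2.12 (1.95 to 2.29) in IL4RaY709F and -1.22 (-1.49 to -0.95) in IL4Ra-/-. Serpina3f had 242 CPM in IL4RaY709F, 19.3 CPM in IL4Ra-/- and 57.8 CPM in WT (2.07 and -1.58). The genes of this cluster are much alike, so the split of reads between them is uncertain. Of the 9 inhibitors, 6 were measured in IL4RaY709F against WT, with these 2 higher, and 7 in IL4Ra-/- against WT, with these 2 lower. The most abundant, Serpinb1a, had 863 RPKM in IL4RaY709F, 626 RPKM in IL4Ra-/- and 697 RPKM in WT, followed by the cystatins Cst3 (211 RPKM in WT) and Cst7 (178 RPKM in WT).

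E-boxes of the kind bound by the TFEB family were looked for in the 250 bases upstream of the RefSeq starts (GRCm38.p6), where 32 of the 36 members had an entry (none for Asah1, Ctsb, Ctse and Npc1). The 4 sequences below show where the matches lie in promoters of members described above, with capitals for the match, 5′ to 3′ on the strand of the gene.
Lamp1 chr8:13159061-13159160 (plus strand): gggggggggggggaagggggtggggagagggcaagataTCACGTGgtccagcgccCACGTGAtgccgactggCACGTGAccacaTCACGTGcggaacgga
Gla chrX:134601156-134601255 (minus strand): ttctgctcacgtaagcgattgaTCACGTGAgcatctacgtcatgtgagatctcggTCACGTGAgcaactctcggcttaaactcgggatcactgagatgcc
Glb1 chr9:114400968-114401067 (plus strand): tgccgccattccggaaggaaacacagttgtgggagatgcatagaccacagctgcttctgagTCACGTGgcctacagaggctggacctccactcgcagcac
Gm2a chr11:55097885-55097984 (plus strand): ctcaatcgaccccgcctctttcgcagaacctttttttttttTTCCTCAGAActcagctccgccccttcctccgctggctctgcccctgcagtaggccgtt

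The Lamp1, Gla and Glb1 capitals mark TCACGTG on either strand, and the Lamp1 window holds 4 such E-boxes within 62 bases of the start. The core CACGTG, searched on both strands, lay upstream of 10 of the 32 members (31.2%) and of 6.86% of 27025 genes. The longer TCACGTG, which contains the core, lay upstream of 9 members (Ctsa, Ctsd, Gaa, Gla, Glb1, Lamp1, Lgmn, Mcoln1 and Naglu) and of 3.58% of genes. TCACGTGA, which contains both, lay upstream of 4 members (Ctsa, Ctsd, Gla and Mcoln1) and of 0.907% of genes, and the same letters with G before and C after them upstream of 0 members and of 0.270% of genes. For 4 of the 10 genes with the core every match lay inside the gene's span as the count tables draw it. STAT-type motifs were searched too, since the IL-4 receptor signals through STAT6. TTC and GAA with 4 bases between them, shown in capitals for Gm2a, were found for Gm2a and Tfeb (6.25% of members, 6.76% of genes), and with 3 bases between them for Ctsc and Gm2a (6.25% and 8.13%). The motifs were chosen after the data were seen, and a match is a string of letters, not a measured binding site.

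Exons of 13 members overlap another gene, by more than 10% of the exon length in 5. The sources used here do not state whether counting was by strand, so reads of overlapping genes could not be told apart. For Ctsb, the overlapping gene Fdft1 had 49 reads in IL4RaY709F, 72 in IL4Ra-/- and 48 in WT, against 478, 651 and 430 for Ctsb. The partners of Ctsa (Pltp), Ctsd (Gm49369), Ctsl (Gm47123) and Hexa (Tmem202) had 25 reads or fewer in every bulk library. Gm49369 covers 34.4% of the Ctsd exon length on the same strand, where counting by strand would not separate them either. Its low count therefore does not show that the Ctsd level is unaffected. Ppt1 shares 129 bases with Cap1, which had 1226, 1247 and 1194 reads in IL4RaY709F, IL4Ra-/- and WT.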

How the data were processed

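For 3 bulk libraries and 81 single cells the authors deposited gene tables of raw, whole-number read counts. RNA came from a QuickRNA kit and libraries from Illumina's standard procedure, per the labels' protocols. Per the submitters' processing notes, HISAT, featureCounts and Subread 2.0.0 were used, and GRCm38 and mm9 are named without roles. Coordinates of 99.5% of the matched gene IDs and of all 36 members were those of GRCm38 (GENCODE M21). How multimapping reads were handled is not stated, nor is any molecular identifier, and reads are not independent molecules.

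Bulk CPM used TMM factors (edgeR 4.0.16) from all 3 libraries, and RPKM used the deposited exon length. Log2 ratios carry exact conditional binomial (Clopper-Pearson) 95% intervals, and 0 reads was set to 3. No p-value was computed, since each genotype had 1 library. Cells needed 10000 gene reads. The labels name no animal for them, so they are 1 sample, with exact shares and no test. The ratio method was tested on simulated data.

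Described in full are members past the size rule, the 12 highest per kilobase in WT, the 5 highest and 5 lowest ratios in each mutant and the 5 with the widest spread over cells among those in at least 50% of cells. Members, lists and rules were chosen with earlier results of these data known. Alternatives were other scalings (total reads, DESeq2 1.42.0 size factors, totals without immunoglobulin, mitochondrial and ribosomal RNA genes), read minimums, folds, detection limits, thinning and cell filters. Of the pathway lists, Tmem55b was not found by symbol.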

Additional observations from a re-analysis of the deposited data

Results flagged for a closer look

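The WT cell left out for its depth, with 1225 gene reads, had 7 reads of Gm2a. That is above the limit of 3 reads that a count of 0 allows, in a library that no comparison used. Of the other members, 6 had 1 read each in that cell.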

How the results depend on the processing

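No paired analysis was possible because each genotype had 1 library and the numbers of the cells pair nothing. No result changed sign among those past the size rule. With a limit of 1.5-fold, 2 members were higher and 1 lower in IL4RaY709F against WT, 7 were higher in IL4Ra-/- against WT, and 2 were higher and 7 lower between IL4RaY709F and IL4Ra-/-. Between the mutants, 0 were higher with total reads, and 0 were higher and 5 lower with totals without immunoglobulin, mitochondrial and ribosomal RNA genes, where the median was -0.45. No share over all genes is given for the 1.5-fold limit or for these scalings. The counts of members there are therefore not a result about the group. Detection at 1 read gave 21 members in at least 50% of cells and a median share of 58.1%. Detection at 50 reads and thinning to 150000 gene reads each left 2 members in no cell. The median of IL4RaY709F to WT, 0.16 as reported, was 0.05 with total reads and 0.05 with immunoglobulin, mitochondrial and ribosomal RNA genes left out of the totals, and that of IL4Ra-/- to WT was 0.24 as reported and 0.24 to 0.40 elsewhere. The cause of these shifts was not tested, beyond what the settings do by construction. Fewer than 50 reads limit Ctsl, Tfeb and Naglu in every library, and no setting can stand in for replicate libraries.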
